A study of Mus musculus with 4 samples.

Results

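Vascular smooth muscle spots were the spots of 4 mouse heart sections that carried the most contractile smooth muscle transcript. A Visium spot is a small round area of tissue that can hold several cells of different types, so the results concern regions and not cells. Within each section, spots with at least 5000 UMIs (unique molecular identifiers, 1 per captured transcript) were ranked by the share of their UMIs on Myh11, Cnn1 and Lmod1, and the top 3% were taken. Myh11 encodes smooth muscle myosin heavy chain, Cnn1 calponin and Lmod1 leiomodin, an actin filament nucleator. In GRCm38 they lie at chr16:14194527-14292188, chr9:22099221-22109221 and chr1:135324813-135368065. The rule gave 75 and 76 spots in the antibody sections and 75 and 91 in the ICI-alone sections, 317 of the 10744 spots under tissue, and left 10270 other spots above the same depth for comparison. The 3 genes that chose the spots were left out of every test.

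The hearts were formalin-fixed and paraffin-embedded, and each of the 4 libraries is 1 section. In the antibody group (2 sections), wild type FVB/NJ mice that had been immunized against MyHCα (alpha cardiac myosin heavy chain) by a peptide received 2 immune checkpoint inhibitors (ICIs), anti-PD-1 and anti-CTLA-4, together with a neutralizing antibody against IL-17A. The ICI-alone group (2 sections) had the same genotype, immunization and inhibitors without that antibody, and the labels record myocarditis in it. No untreated heart was analysed here, and age, dose and time of collection are not given in the sources used here. The labels do not tie the 4 sections to separate animals. The p-values therefore measure only the spread between these sections, which may be technical.

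The sections held 47882576 and 33005923 UMIs with the antibody and 73167202 and 66255242 UMIs with ICIs alone. Smooth muscle spots had median depths of 18716 and 11937 UMIs with the antibody and 29433 and 15981 with ICIs alone, against 18572 and 12375 with the antibody and 27912 and 20833 with ICIs alone in the other spots. Between 2040 and 2239 spot barcodes were shared by each pair of libraries, which is how Visium slides are printed. Atrial tissue was unevenly included: spots with over 1% of UMIs on 5 atrial genes made up 1.33% and 6.58% of the smooth muscle spots with the antibody and 5.33% and 22.0% with ICIs alone. Edge position also varied, with 2 and 24 of the smooth muscle spots at the edge of the tissue in the antibody sections and 2 and 14 in the ICI-alone sections.

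Smooth muscle cells wrap arteries and arterioles, set their tone by contraction, and build the elastic layers between the endothelium and the outer coat, the adventitia. Their contractile genes are switched on by serum response factor and its partner myocardin, which act through a short DNA element called the CArG box, while Notch signals from the endothelium maintain the arterial state. In inflamed hearts, leukocytes leave the blood across the endothelium of small vessels and can gather around them, and IL-17A acts on fibroblasts, endothelium and smooth muscle to induce neutrophil-attracting chemokines.

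One promoter is shown because it belongs to a contractile gene that marked these spots without having chosen them and carries the element through which that programme is switched on. It is the promoter of Myl9, which encodes the regulatory light chain of smooth muscle myosin, at chr2:156775214-156775513 on the plus strand of GRCm38.p6 (RefSeq), from 250 bases before to 50 after the start of transcription. Capitals mark the CArG box, which starts 161 bases before the start site:
Myl9: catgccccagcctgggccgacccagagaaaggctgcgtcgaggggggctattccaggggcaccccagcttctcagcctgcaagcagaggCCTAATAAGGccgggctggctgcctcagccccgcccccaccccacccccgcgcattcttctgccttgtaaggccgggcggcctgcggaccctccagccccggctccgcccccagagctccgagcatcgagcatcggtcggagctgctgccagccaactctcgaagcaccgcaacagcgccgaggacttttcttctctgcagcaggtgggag
The CArG box was searched on both strands, and a match is a description of the letters and not evidence of a bound site. Of 24 contractile genes with a promoter in the RefSeq table, 2 had a CArG box in this window, Myl9 and Ldb3, which encodes a Z-disc protein. This is 8.33%, beside 1.81% of all 27025 genes in that table and 1.62% of the 10978 tested genes with a promoter in it. Cnn1 and Lmod1 had no match in theirs, nor had the contractile genes Acta2, Mylk, Smtn and Kcnmb1. Myh11 and Tagln had no promoter in that table and were not scanned.

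The rule worked on few transcripts per spot. The median smooth muscle spot had 4 and 3 UMIs of the 3 genes in the antibody sections and 10 and 3 in the ICI-alone sections, and 82.2% to 88.2% of the other spots had none. The lowest share that entered was 1.48 and 1.76 per 10000 UMIs with the antibody and 1.73 and 1.24 with ICIs alone, beside 1.47 and 1.75 with the antibody and 1.72 and 1.24 with ICIs alone for the highest share that did not. The medians inside were 2.32 and 2.66 with the antibody and 3.23 and 1.92 with ICIs alone. ICI-alone replicate 2 therefore had the lowest entry share and the lowest median, and 24 of its 91 smooth muscle spots held fewer than 3 UMIs of the chosen genes, as did 7 and 18 in the antibody sections and 0 in ICI-alone replicate 1. Scaled by library size alone, Myh11 stood at 299.6 and 296.7 CPM (counts scaled to 1000000 per library or class) in smooth muscle spots with the antibody and at 392.6 and 159.9 CPM with ICIs alone, against 9.40 and 7.71 CPM with the antibody and 5.94 and 4.21 CPM with ICIs alone in the other spots. These levels describe the selection and were not tested.

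Smooth muscle spots lay scattered over the sections, mostly in small clumps. Those touching another smooth muscle spot made up 70.7% and 67.1% with the antibody and 78.7% and 69.2% with ICIs alone. They formed 35 and 41 groups of touching spots with the antibody and 28 and 49 with ICIs alone, of which 22 and 25 with the antibody and 16 and 28 with ICIs alone were single spots. The largest was a clump of 24 spots in ICI-alone replicate 1, with 4644 CPM of Acta2, 707 CPM of Eln, which encodes elastin, and 148 CPM of Gja5, an arterial endothelial connexin. The largest clumps of the other sections held 11 and 6 spots with the antibody and 6 in ICI-alone replicate 2. The clump of 6 in ICI-alone replicate 2 had 9205 CPM of Nppa, the atrial natriuretic peptide gene, against 2640 CPM in the clump of 24. The whole atrial gene list summed to 9281 and 2684 CPM in these clumps, so nearly all of its signal there was Nppa. Vessel calibre was not measured.

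Leukocyte-rich spots, the 10% with the highest share of UMIs on a 20-gene leukocyte panel, were rarer among smooth muscle spots than among the other spots in 3 of 4 sections. With the antibody 2 of 75 and 2 of 76 smooth muscle spots were leukocyte-rich (2.67% and 2.63%), against 8.79% and 2.55% of the other spots. With ICIs alone 1 of 75 and 3 of 91 were (1.33% and 3.30%), against 10.1% and 19.5%. The 95% Wilson intervals of the smooth muscle spots ran from 0.734% to 9.21% and 0.725% to 9.10% with the antibody, and from 0.236% to 7.17% and 1.13% to 9.25% with ICIs alone. They cover counting error only, and they lay below those of the other spots in the ICI-alone sections (8.92% to 11.3% and 18.2% to 21.0%) but not in the antibody sections (7.72% to 9.98% and 2.00% to 3.25%). In the maps, smooth muscle spots and leukocyte-rich patches occupy largely separate areas.

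**Figure D1:**
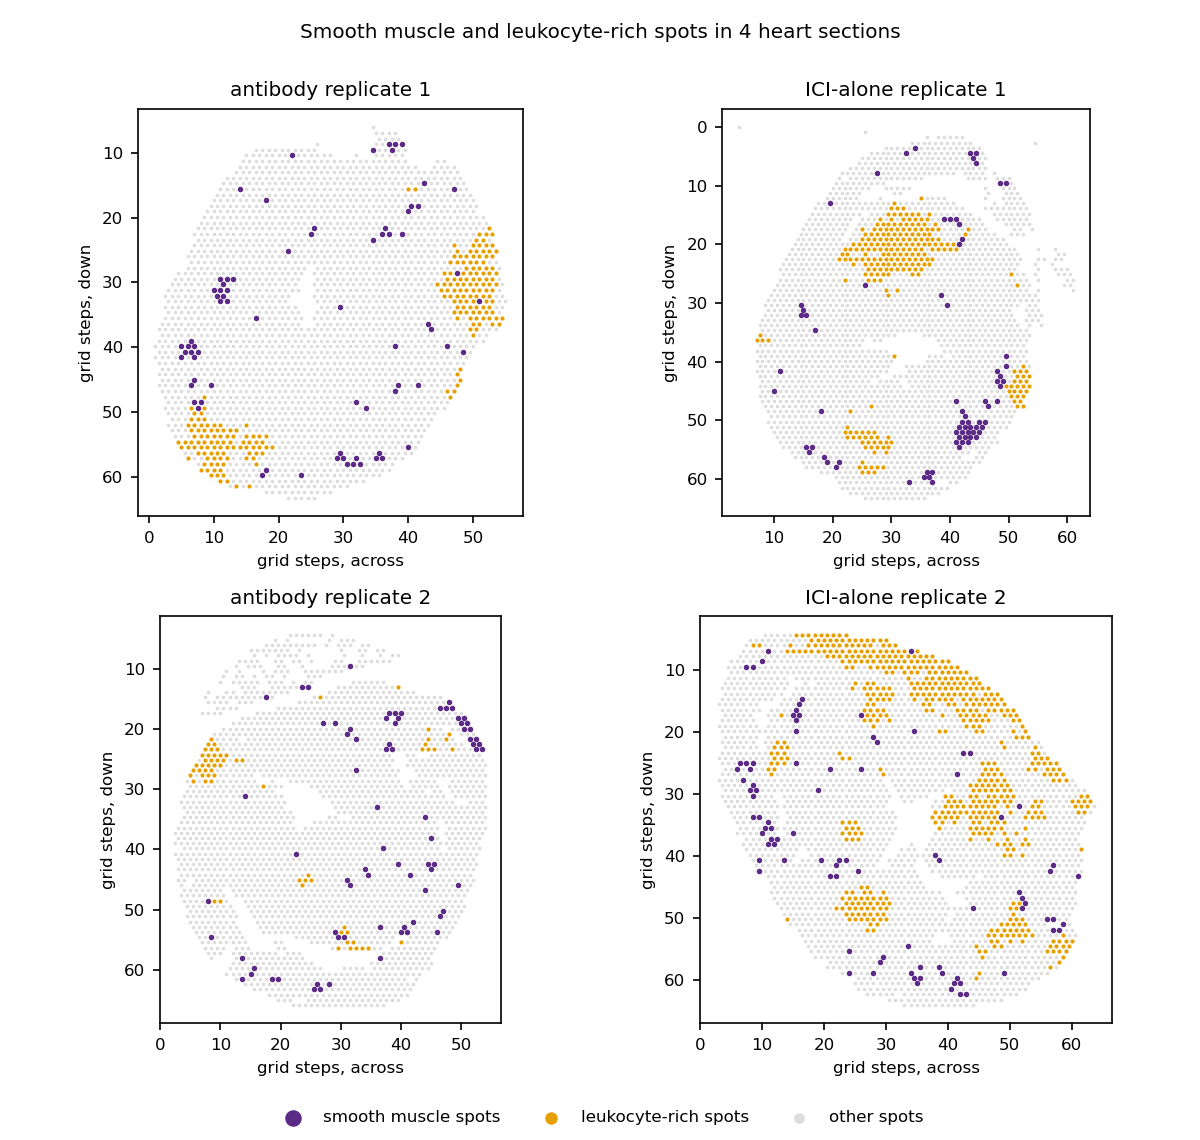
Position of smooth muscle spots (purple), leukocyte-rich spots with 5000 or more UMIs (orange) and all other spots under tissue (grey) in the 4 sections. Grey includes the spots below 5000 UMIs. Both axes are in grid steps (1 step is the distance between neighbouring spots). Of the 317 smooth muscle spots, 8 were also leukocyte-rich and are drawn in purple (2, 2, 1 and 3 by section, antibody sections first).

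Smooth muscle spots were compared with the other spots of the same section to ask which tissue the chosen spots hold and what inflammation lies on it. Their contractile genes were high, arterial endothelium, elastic matrix and adventitial fibroblast genes were high with them, and macrophage, neutrophil and interferon gamma response genes were lower. Counts were summed per section and class, scaled by TMM (which corrects library sizes for composition) and tested with the edgeR quasi-likelihood test with the section as a block, at a Benjamini-Hochberg adjusted p under 0.05. Of 14133 genes tested, 637 were higher (4.51%) and 862 lower (6.1%), 1499 in all (10.6%), and the median log2 fold change of all genes was -0.03. The excess of lower genes was not stable: 719 were higher and 670 lower when scaled by library size alone, and 820 and 782 with no filter. Because the spots were chosen on smooth muscle transcripts, the high level of other genes of the same cells is a description of the choice. Genes of other cells were not counted by the rule. Their levels are not free of it, since a share of UMIs is lower where other cells add RNA. When spots were ranked after thinning to equal depth, 513 genes were higher and 356 lower.

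Contractile genes checked the name given to the spots. Of 30 tested in the contractile list, 18 were higher and 0 lower, with a median log2 fold change of 0.60. Tagln, which encodes the actin-binding protein transgelin, stood at 405 and 284 CPM (TMM-scaled, as in all later gene levels) in smooth muscle spots with the antibody and 826 and 331 CPM with ICIs alone, against 20.998 and 12.03 CPM with the antibody and 26.5 and 40.5 CPM with ICIs alone in the other spots. Acta2, smooth muscle alpha actin, stood at 1132 and 834 CPM with the antibody and 2395 and 1045 CPM with ICIs alone, against 163 and 196 CPM with the antibody and 217 and 358 CPM with ICIs alone. For both genes the lowest smooth muscle value lay above the highest value of the other spots. Log2 fold changes were 4.21 ± 0.21 (SE) for Tagln, 2.48 ± 0.20 for Acta2, 3.75 ± 0.23 for Myl9, 2.72 ± 0.14 for Mylk, the kinase that triggers contraction, and 4.49 ± 0.25 for Actg2, smooth muscle gamma actin. Des, which encodes desmin and is also abundant in cardiomyocytes, had -0.02 ± 0.13 and did not pass (adjusted p = 0.957). The pericyte gene Rgs5, a regulator of G protein signalling, did not pass either (0.16 ± 0.13, adjusted p = 0.533), although 6 of 14 pericyte genes did, among them Cspg4, the NG2 proteoglycan (1.26). The 17 cardiomyocyte sarcomere genes summed to 84454 and 70262.5 CPM in smooth muscle spots with the antibody and 61667 and 55962 CPM with ICIs alone (library-size scaled), so heart muscle RNA was plentiful in these spots.

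Regulators and tone genes of smooth muscle were high too. Among 20 transcriptional control genes 8 were higher and 0 lower (median 0.39), with Myocd, myocardin itself, at 0.41 ± 0.10, an adjusted p of 0.0109 and of 0.153 without ICI-alone replicate 1. Genes of the Notch pathway were among the higher ones: the receptor gene Notch3 had 1.28 ± 0.10, its ligand Jag1 0.97 ± 0.12, and the target genes Heyl and Hey2 1.30 ± 0.13 and 1.94 ± 0.31. Of 27 calcium and vasomotor genes, 12 were higher and 0 lower (median 0.45). They include Kcnmb1, the beta subunit of the calcium-activated potassium channel (2.81 ± 0.26), Gucy1a1, a subunit of the nitric oxide receptor (1.53 ± 0.12), and Rgs4 (1.81 ± 0.11).

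The spots also carried the inner and outer coats of an artery. Of 17 arterial endothelium genes 15 were higher and 0 lower, with a median of 1.08, the highest of the vessel lists. The list counts Fbln5, an elastic fibre gene that is given with the matrix genes below. Gja5 stood at 66.9 and 63.8 CPM in smooth muscle spots with the antibody and 98.6 and 80.9 CPM with ICIs alone, against 6.77 and 19.8 CPM with the antibody and 8.98 and 9.11 CPM with ICIs alone (log2 fold change 2.96 ± 0.19, adjusted p = 4.08e-10 by edgeR). Sema3g, an arterial semaphorin, stood at 69.1 and 62.8 CPM with the antibody and 82.4 and 60.9 CPM with ICIs alone, against 11.2 and 12.4 CPM with the antibody and 11.96 and 8.62 CPM with ICIs alone (2.66 ± 0.11, adjusted p = 1.85e-12). All 4 sections gave the same direction for both genes, with no overlap between spot classes. Capillary and venous genes were mixed, with 2 higher and 3 lower of 15 capillary genes and 4 higher and 2 lower of 13 venous and endocardial genes. Cldn5, a tight junction gene counted in the capillary list, was higher (1.79 ± 0.10, adjusted p = 5.51e-11), and Plvap, which forms the diaphragms of fenestrated vessels, was lower (-1.005 ± 0.11, adjusted p = 1.10e-06), though not when Acta2, Tagln and Myl9 chose the spots. Pecam1, common to all endothelium, had 0.26 ± 0.09 and did not pass (adjusted p = 0.0583).

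Matrix genes of the vessel wall followed. Eln stood at 164 and 204 CPM in smooth muscle spots with the antibody and 449 and 294 CPM with ICIs alone, against 35.4 and 53.7 CPM with the antibody and 62.02 and 70.9 CPM with ICIs alone (2.28 ± 0.12, adjusted p = 3.41e-11), and in the elastic lamina list 15 of 22 genes were higher and 0 lower (median 0.46). Fbln5, which tethers elastic fibres to cells, had 2.26 ± 0.12, and Ltbp4, which helps assemble them, 1.18 ± 0.13. In the adventitial fibroblast list 14 of 20 genes were higher and 0 lower (median 0.72), with Pi16 at 1.30 ± 0.14 and Clec3b, tetranectin, at 0.92 ± 0.09. Mgp, which inhibits calcification of the arterial wall, had 1.498 ± 0.13. Col1a1, a chain of fibrillar collagen, did not pass (-0.16 ± 0.14, adjusted p = 0.616).

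Beyond the lists, the largest rises included an olfactory-type receptor and secreted or membrane proteins. Olfr78, a G protein-coupled receptor known from vascular smooth muscle, stood at 35.3 and 14.4 CPM in smooth muscle spots with the antibody and 18.4 and 14.1 CPM with ICIs alone, against 2.86 and 1.93 CPM with the antibody and 1.43 and 1.15 CPM with ICIs alone (3.51 ± 0.22, adjusted p = 2.79e-10). Ccdc3, which encodes a secreted protein, had a log2 fold change of 3.84 ± 0.21, Olfml2a, an extracellular olfactomedin, 3.31 ± 0.20, and Slc38a11, an amino acid transporter, 3.41 ± 0.26. Each of these was higher in all 4 sections.

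Inflammatory genes lay lower in the smooth muscle spots. Mmp12, the macrophage elastase, stood at 92.1 and 18.5 CPM with the antibody and 62.7 and 137 CPM with ICIs alone, against 618 and 143 CPM with the antibody and 643 and 757 CPM with ICIs alone in the other spots (-2.86 ± 0.13, adjusted p = 4.93e-12). Arg1, arginase of alternatively activated macrophages, stood at 219.5 and 26.7 CPM with the antibody and 66.6 and 259.6 CPM with ICIs alone, against 1088 and 193 CPM with the antibody and 899 and 1560.5 CPM with ICIs alone (-2.84 ± 0.17, adjusted p = 2.00e-10). Both were lower in every section, and antibody replicate 2 had the lowest level of each in both spot classes. Of 22 macrophage and monocyte genes 12 were lower and 1 higher (Mrc1, a scavenger receptor of resident macrophages), with a median of -0.53, and Cd68, a lysosomal macrophage marker, had -0.66 ± 0.11 (adjusted p = 2.94e-04). Neutrophil genes were lower for 9 of 13 and higher for 0 (median -1.08), and T cell genes for 6 of 22 and 0 (median -0.58). Cd3e, a chain of the T cell receptor complex, had -0.57 ± 0.18 with an adjusted p of 0.0491, which was 0.269, 0.182 and 0.18 without antibody replicate 1, antibody replicate 2 and ICI-alone replicate 2. In bulk sums of this kind, fewer cells of a type and less RNA per cell cannot be told apart.

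The interferon gamma response was the list with the largest share of lower genes, 22 of 25 with 0 higher (median -0.52). Cd274, which encodes PD-L1, the ligand of PD-1, stood at 176 and 290.1 CPM in smooth muscle spots with the antibody and 85.5 and 85.6 CPM with ICIs alone, against 350.0 and 423 CPM with the antibody and 212 and 254 CPM with ICIs alone (-1.09 ± 0.12, adjusted p = 2.92e-06). It was lower in each of the 4 sections than in the other spots of that section. Ifng, the cytokine itself, had -1.18 ± 0.22 and Tap1, a peptide transporter for antigen presentation, -0.58 ± 0.09. Chemokine genes were lower for 13 of 22 and higher for 1, Cxcl14, and genes of the IL-17 receptors and targets for 11 of 22 and 0. Il17ra, the receptor subunit that IL-17A binds, had -0.70 ± 0.12 (adjusted p = 4.49e-04), and the call was lost when Acta2, Tagln and Myl9 chose the spots, after thinning and on mean log values (highest adjusted p = 0.298). Of 18 endothelial adhesion and activation genes 4 were higher and 1 lower (median 0.20). The higher ones were Glycam1, a ligand of L-selectin (2.33 ± 0.61), Cd34 (0.49 ± 0.09), Icam2 (0.43 ± 0.10) and Vwf, von Willebrand factor (0.47 ± 0.13, adjusted p = 0.024, and 0.205 and 0.167 without ICI-alone replicates 1 and 2). Vcam1 had 0.10 ± 0.09 (adjusted p = 0.625), Selp, P-selectin, -0.38 ± 0.17 (adjusted p = 0.203), and Icam1 -0.34 ± 0.09 (adjusted p = 0.0209, and 0.17, 0.0848 and 0.0598 without antibody replicate 1, ICI-alone replicate 1 and ICI-alone replicate 2).

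The leukocyte-rich spots were few among smooth muscle spots, and the counts of lower genes moved with them. Without leukocyte-rich spots in either class 884 genes passed (588 higher, 296 lower), the leukocyte panel kept 7 lower genes of 20 (13 with those spots), and Cd68 no longer passed, while 19 of 25 interferon gamma genes were still lower and 15 of 17 arterial genes higher. Leaving out antibody replicate 1 gave 932 genes, and leaving out ICI-alone replicate 1 gave 982. The count was 875 when Acta2, Tagln and Myl9 chose the spots and 869 when spots were ranked after thinning to equal depth. On the mean log value over spots, limma called 0 genes (2019 at an unadjusted p under 0.05), and 643 once the variance was fitted as a trend.

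**Figure D2:**
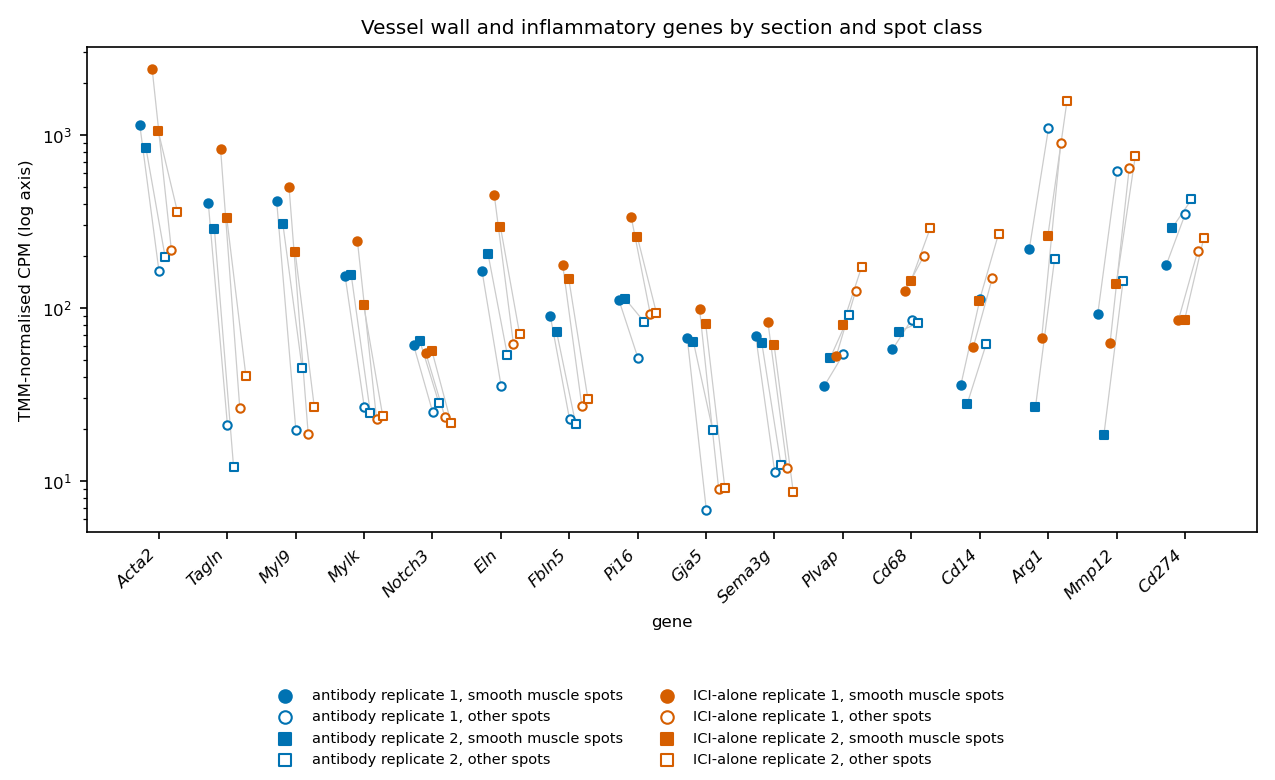
TMM-normalised CPM (log axis) of 16 genes in smooth muscle spots (filled) and the other spots (open), joined within each section (antibody sections blue, ICI-alone sections orange). Vessel wall genes from Acta2 to Sema3g lie higher in the smooth muscle spots of every section, and Plvap, Cd68, Cd14, Arg1, Mmp12 and Cd274 lie lower.

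Spots around the chosen ones were then compared with spots far from any. Neither class was chosen itself, but the rule sets both, since each is defined by distance from a chosen spot. First neighbours, 1 grid step from a smooth muscle spot, numbered 260 and 254 with the antibody and 214 and 326 with ICIs alone, and distant spots, 4 or more steps away, 1356 and 1449 with the antibody and 1613 and 1712 with ICIs alone. Vessel genes were still higher in first neighbours, and macrophage, neutrophil and interferon genes lower, although far fewer of these genes passed once leukocyte-rich spots were left out. By edgeR with the section as a block, 480 of 13331 genes were higher in first neighbours (3.6%) and 908 lower (6.81%), 1388 in all (10.4%), with a median log2 fold change of 0.01 over all genes. Scaled by library size alone the split was 308 higher and 1243 lower.

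Smooth muscle genes were higher in the first neighbours. Acta2 stood at 308 and 316 CPM in first neighbours with the antibody and 458 and 439 CPM with ICIs alone, against 125 and 169 CPM with the antibody and 181 and 336 CPM with ICIs alone in distant spots (0.98 ± 0.15, adjusted p = 0.00416). Of 30 contractile genes 13 were higher and 0 lower (median 0.44). Tagln had 1.82 ± 0.18 (adjusted p = 4.65e-04), Eln 0.76 ± 0.12 (adjusted p = 0.00591) and Sema3g 1.17 ± 0.13 (adjusted p = 9.12e-04). Gja5 was higher in 3 of 4 sections (0.89 ± 0.21, adjusted p = 0.0326), with an adjusted p of 0.122 when antibody replicate 1 was left out and 0.0845 when ICI-alone replicate 1 was. Arterial endothelium genes were higher for 5 of 16 and lower for 1, and adventitial genes for 6 of 20 and 0. The summed arterial level fell away within a step. This list summed to 715 and 683 CPM in smooth muscle spots with the antibody and 881 and 762 CPM with ICIs alone. At 1 step it summed to 332 and 316 CPM with the antibody and 323 and 364 CPM with ICIs alone, and at 2 steps to 290.4 and 290.04 CPM with the antibody and 236 and 304 CPM with ICIs alone. At 6 or more steps it was 320 and 296 CPM with the antibody and 288 and 357 CPM with ICIs alone, little below the level at 1 step. The adventitial list was lower at 1 step (2892 CPM) than at 6 or more (2976 CPM) in antibody replicate 1, and higher at 1 step in the other sections.

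Dio2 and Itih4 lie outside the vessel lists and were among the genes with the largest rises. Dio2, which activates thyroid hormone, stood at 7.50 and 7.07 CPM in first neighbours with the antibody and 23.3 and 12.8 CPM with ICIs alone, against 1.96 and 3.55 CPM with the antibody and 3.24 and 2.67 CPM with ICIs alone in distant spots (2.20 ± 0.25, adjusted p = 9.78e-04). Itih4, an inter-alpha-trypsin inhibitor chain, had 1.43 ± 0.16 (adjusted p = 8.69e-04). First neighbours of every section exceeded the distant spots of that section for both.

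Macrophage, neutrophil and interferon transcripts were lower beside smooth muscle spots than far from them. Mmp12 stood at 168 and 31.8 CPM in first neighbours with the antibody and 165 and 227 CPM with ICIs alone, against 856 and 213 CPM with the antibody and 801 and 910.0 CPM with ICIs alone in distant spots (-2.31 ± 0.12, adjusted p = 3.84e-05). Mmp13, a collagenase, had -1.96 ± 0.11 (adjusted p = 3.84e-05), Adam8, a leukocyte surface protease, -1.87 ± 0.11 (adjusted p = 6.30e-05), and Ifng -1.32 ± 0.18 (adjusted p = 0.00243). All were lower in first neighbours in each section. Of 22 macrophage genes 10 were lower and 0 higher (median -0.47), of 13 neutrophil genes 9 and 0 (median -0.73), and of 25 interferon gamma genes 9 and 0 (median -0.30). Selp, which slows leukocytes on venous endothelium, had -0.66 ± 0.11 (adjusted p = 0.00645) and Plvap -0.87 ± 0.07 (adjusted p = 2.34e-04). Vcam1 did not pass (-0.21 ± 0.08, adjusted p = 0.13). Ccl2, a monocyte chemoattractant, had -0.39 ± 0.07 (adjusted p = 0.00828, and 0.072 and 0.0579 without antibody replicates 1 and 2).

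The leukocyte panel climbed with distance. Its summed level was 1191 and 1711 CPM in smooth muscle spots with the antibody and 2189 and 2314 CPM with ICIs alone. It was 1484 and 1646 CPM with the antibody and 2439 and 2588 CPM with ICIs alone at 1 step, and 2521 and 2334 CPM with the antibody and 3800 and 5650 CPM with ICIs alone at 6 or more steps. The rise over distance was steepest in ICI-alone replicate 2, and in antibody replicate 2 the level at 1 step was below that at 0. Cardiomyocyte sarcomere genes moved the other way in ICI-alone replicate 2, at 55962 CPM in its smooth muscle spots and 27944 CPM at 6 or more steps. In the other sections these were 84454 and 70066 CPM (antibody replicate 1), 70262.5 and 69029 CPM (antibody replicate 2) and 61667 and 57431 CPM (ICI-alone replicate 1).

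These neighbour results depended on a few choices. Without leukocyte-rich spots 229 genes passed (61 higher, 168 lower), and the leukocyte panel had 4 lower genes of 20 in place of 13, Cd68 not among them. With spots 2 or 3 steps away in place of distant ones, 294 genes passed, and 7 panel genes were lower. When Acta2, Tagln and Myl9 chose the spots, edgeR called 0 genes (923 at an unadjusted p under 0.05). Leaving out antibody replicate 1 gave 455 genes and leaving out antibody replicate 2 gave 617.

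**Figure D3:**
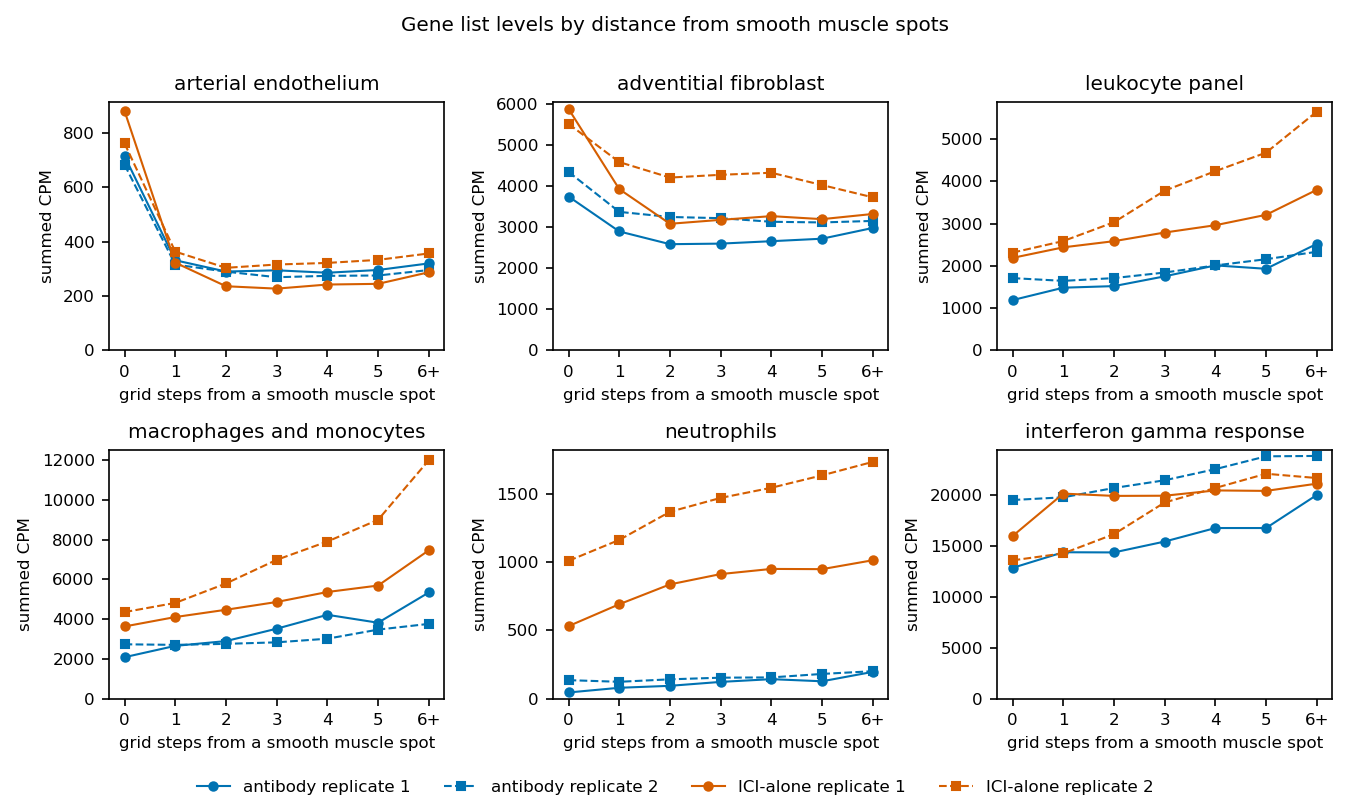
Summed CPM of 6 gene lists, scaled by library size, against the distance in grid steps from the nearest smooth muscle spot (0 is a smooth muscle spot, 6+ is 6 or more steps), with 1 line per section. The arterial list drops within 1 step in all 4 sections, while the leukocyte panel is higher at 6 or more steps than at 0 in each, up to 5650 CPM in ICI-alone replicate 2.

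The last question was what neutralizing IL-17A during ICI treatment changed in the smooth muscle spots themselves. Matrix-building fibroblast genes, neutrophil genes and IL-17 target chemokines were far lower with the antibody, elastic fibre genes were lower, and several interferon gamma response and vasomotor receptor genes were higher. By edgeR on 1 sum per section, 326 of 10493 genes rose with the antibody (3.11%) and 399 fell (3.8%), 725 in all (6.91%), and the median log2 fold change was 0.01. Scaled by library size alone the split was 262 up and 492 down. Blocking on the replicate number, which the labels call a batch, gave 1385 calls (654 up, 731 down). They held 723 of the 725 genes with their direction, but over 10493 genes the deviations of same-numbered sections correlated at only 0.0398.

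Matrix genes of activated fibroblasts fell in the smooth muscle spots. Tnc, tenascin C, stood at 21.2 and 14.9 CPM in the smooth muscle spots with the antibody, against 286 and 287 CPM with ICIs alone (-3.95 ± 0.22, adjusted p = 8.59e-06). Col1a1 stood at 383 and 514 CPM with the antibody, against 2749.6 and 4727 CPM with ICIs alone (-3.06 ± 0.30, adjusted p = 4.23e-04), and Lox, which crosslinks collagen and elastin, at 10.97 and 24.5 CPM with the antibody, against 133 and 208 CPM with ICIs alone (-3.33 ± 0.33, adjusted p = 4.30e-04). For each of these the groups did not overlap, and both ICI-alone sections exceeded the antibody sections several-fold. Among 20 myofibroblast genes 12 fell and 0 rose (median -1.65), including Cthrc1, a secreted product of activated fibroblasts (-3.78 ± 0.37), and Postn, periostin (-2.04 ± 0.21). The list summed to 3287 and 3833 CPM with the antibody and 13795 and 15351 CPM with ICIs alone.

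Genes of the arterial matrix fell as well, by less at the median (-0.90 against -1.65 for the myofibroblast list). Eln stood at 167 and 211 CPM with the antibody, against 450.3 and 295 CPM with ICIs alone (-0.99 ± 0.23, adjusted p = 0.027, and 0.0792 and 0.279 without antibody replicate 1 and ICI-alone replicate 1). Mfap5, a microfibril protein of elastic fibres, stood at 62.9 and 65.98 CPM with the antibody, against 224 and 209 CPM with ICIs alone (-1.75 ± 0.18, adjusted p = 4.73e-04). The groups did not overlap for either. Of 22 elastic lamina genes 10 fell and 0 rose (median -0.90), with Efemp2, fibulin 4, at -1.61 ± 0.19 and Mfap4 at -1.22 ± 0.19. The largest fall in that list was -3.33, that of Lox above, so the fibroblast and arterial matrix groups overlap. Fbln5 had -0.96 ± 0.19 (adjusted p = 0.0143, and 0.0945 without ICI-alone replicate 1). In the adventitial list 7 of 17 genes fell and 0 rose (median -0.37), and Pi16 stood at 113 and 117 CPM with the antibody, against 338 and 259 CPM with ICIs alone (-1.38 ± 0.19, adjusted p = 0.00315).

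Of 30 contractile genes 1 rose and 1 fell, Nrip2 and Hspb1, a share close to the 6.91% called over all genes, and the median was -0.07. Acta2 stood at 1150.0 and 863 CPM with the antibody and 2403 and 1050.3 CPM with ICIs alone (-0.78 ± 0.33, adjusted p = 0.174), Tagln at 412 and 294 CPM with the antibody and 829 and 332 CPM with ICIs alone (-0.72 ± 0.34, adjusted p = 0.227), and Myl9 at 418 and 316 CPM with the antibody and 503 and 211 CPM with ICIs alone (0.04 ± 0.32, adjusted p = 0.96). In all 3 ICI-alone replicate 1, whose largest clump held 24 spots, was highest, and the groups overlapped. Without ICI-alone replicate 2, Acta2 and Tagln passed as lower with the antibody (adjusted p = 0.0195 and 0.00944), whereas without ICI-alone replicate 1 they were 0.963 and 0.935. Nrip2 (1.41 ± 0.32) and Hspb1, a small heat shock protein (-0.995 ± 0.23), had adjusted p of 0.0253 and 0.0277, of 0.163 and 0.0557 without antibody replicate 1, and of 0.118 and 0.183 without ICI-alone replicate 1. Of 17 transcriptional control genes 0 passed either way, with 2498 of all genes at an unadjusted p under 0.05.

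Receptors that set vascular tone were among the genes that rose. The calcium and vasomotor list summed to 1091 and 1026 CPM with the antibody and 817 and 789 CPM with ICIs alone (library-size scaled). In the other spots it was higher with the antibody too, at 815 and 836 CPM against 573 and 458 CPM. Adra1b, an alpha-1 adrenergic receptor that mediates constriction, stood at 67.3 and 56.4 CPM with the antibody, against 25.5 and 18.9 CPM with ICIs alone (1.47 ± 0.23, adjusted p = 0.00491). Ptgfr, the receptor of prostaglandin F2 alpha, stood at 21.2 and 35.1 CPM with the antibody, against 6.60 and 7.07 CPM with ICIs alone (1.99 ± 0.36, adjusted p = 0.00974). Neither pair of groups overlapped, but the Ptgfr call was lost after thinning, without atrial-rich spots and on mean log values (highest adjusted p = 0.152), and DESeq2 gave Ptgfr no adjusted p. With Adra1a (1.36 ± 0.33, adjusted p = 0.0324, and 0.138 and 0.138 when antibody replicate 1 or ICI-alone replicate 2 was left out), these were the 3 that rose of 23 calcium and vasomotor genes, and 0 fell (median 0.33). Cardiomyocytes carry alpha-1 adrenergic receptors too, and among 17 sarcomere genes 4 rose and 1 fell. Myh6, the adult cardiac myosin, stood at 24439 and 17480.0 CPM with the antibody, against 8452 and 8479 CPM with ICIs alone (1.31 ± 0.27, adjusted p = 0.0172, and 0.159 and 0.173 without ICI-alone replicates 1 and 2), and Myh7, its fetal counterpart, at 488 and 508 CPM with the antibody, against 1629.6 and 2825 CPM with ICIs alone (-2.16 ± 0.27, adjusted p = 0.00164). The part of cardiomyocyte content in the receptor values was not tested.

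Neutrophil and IL-17 target genes were low in the smooth muscle spots under the antibody. S100a9, a subunit of calprotectin, stood at 7.32 and 10.6 CPM with the antibody, against 117 and 221 CPM with ICIs alone (-4.25 ± 0.39, adjusted p = 3.02e-04). Cxcl5, a neutrophil chemoattractant, stood at 32.2 and 32.99 CPM with the antibody, against 111 and 316 CPM with ICIs alone (-2.70 ± 0.43, adjusted p = 0.00495). Lcn2, a siderophore-binding protein of acute inflammation, stood at 10.97 and 87.3 CPM with the antibody, against 311 and 509.6 CPM with ICIs alone (-3.17 ± 0.55, adjusted p = 0.00745). The groups lay apart for all of these, with ICI-alone replicate 2 the highest section. The Lcn2 call was lost under DESeq2 and on mean log values (highest adjusted p = 0.102). Of 24 IL-17 list genes in the matrix 16 were tested, of which 8 fell and 0 rose (median -1.65). Among them were Cxcl1 (-2.66 ± 0.52), S100a8 (-3.18 ± 0.46) and Mmp3, stromelysin (-3.57 ± 0.30). Il6, a cytokine that vessel wall cells release, had -2.15 ± 0.54 (adjusted p = 0.037, and 0.0808 and 0.0767 without antibody replicate 2 and ICI-alone replicate 2). Il17ra overlapped between the groups (-0.69 ± 0.34, adjusted p = 0.236). Of 16 neutrophil genes in the matrix 7 were tested, of which 5 fell and 0 rose (median -3.14). All 16 summed to 44.7 and 135 CPM with the antibody and 531 and 1009 CPM with ICIs alone (library-size scaled). In both lists a gene could pass the expression filter through the ICI-alone sections alone. The direction of the tested genes is therefore partly fixed by the filter. The neutrophil genes include S100a9, which the IL-17 count above also includes, so these counts overlap and are not separate evidence.

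Several macrophage genes fell in these spots. Cd68 stood at 58.5 and 75.6 CPM with the antibody, against 125 and 144 CPM with ICIs alone, without overlap (-1.01 ± 0.19, adjusted p = 0.0122), and Spp1, osteopontin, had -1.34 ± 0.21. Among 21 macrophage genes 8 fell and 0 rose (median -0.72), and in the 20-gene leukocyte panel 5 of 19 tested fell and 0 rose (median -0.61). Beside 3.11% of all genes that rose and 3.8% that fell, 1 of 13 T cell genes rose, Lck, a T cell receptor kinase (1.39 ± 0.32, adjusted p = 0.0261, and 0.0535 and 0.0843 without antibody replicate 2 and ICI-alone replicate 2), and 0 fell, with Cd3e at 13.9 and 15.96 CPM with the antibody and 15.8 and 5.89 CPM with ICIs alone. Retnla, a product of alternatively activated macrophages, was among the largest rises, at 183 and 246 CPM with the antibody, against 68.2 and 11.2 CPM with ICIs alone (2.36 ± 0.47, adjusted p = 0.0144). The Retnla call was lost under DESeq2, with 5% of spots, after thinning and on mean log values (highest adjusted p = 0.297). Cd79a, Cd8a, Cxcl9 and Ackr1 were too low here to be tested.

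Some interferon gamma response genes rose. Cd274 stood at 179 and 300.1 CPM in smooth muscle spots with the antibody, against 85.7 and 86.01 CPM with ICIs alone (1.47 ± 0.23, adjusted p = 0.00495), and Gbp6, a guanylate-binding protein induced by interferon, at 499 and 875 CPM with the antibody, against 298 and 124 CPM with ICIs alone (1.69 ± 0.36, adjusted p = 0.0188). Antibody replicate 2 was the highest section for both, and the groups did not overlap. The Cd274 call was lost when Acta2, Tagln and Myl9 chose the spots and on mean log values (highest adjusted p = 0.154), and the Gbp6 call under DESeq2 and on mean log values (highest adjusted p = 0.181). Of 23 list members tested 7 rose and 0 fell (median 0.54). The number that rose was 15 of 24 without antibody replicate 1, 4 of 23 without antibody replicate 2 (1 fell), 7 of 24 without ICI-alone replicate 1 and 2 of 24 without ICI-alone replicate 2. Ifng stood at 8.78 and 7.45 CPM with the antibody and 3.96 and 3.53 CPM with ICIs alone, without overlap (1.11 ± 0.49, adjusted p = 0.193). MHC genes gave 0 passing of 15.

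Endothelial genes passed about as often as all genes (6.91%). Of 16 genes of the arterial endothelium list 1 fell and 0 rose. The gene that fell was Fbln5, the elastic fibre gene already given with the arterial matrix. Gja5 had -0.43 ± 0.19 (adjusted p = 0.185). Vcam1 (0.21 ± 0.22, adjusted p = 0.614), Icam1 (-0.22 ± 0.20, adjusted p = 0.544) and Sele, E-selectin (-0.38 ± 0.48, adjusted p = 0.68), overlapped between the groups. In the adhesion and activation list the 1 gene of 15 that fell was Il6, and 0 rose.

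The number of calls in the treatment comparison moved with the spots used. It was 307 without atrial-rich spots, which made up 22.0% of the smooth muscle spots of ICI-alone replicate 2, and 1276 without edge spots. Without atrial-rich spots 12 of 18 myofibroblast genes and 9 of 21 elastic lamina genes still fell. DESeq2 called 404 genes, and limma, run on means of log values over spots, 220. By that limma test Adra1b (adjusted p = 0.0773), Cxcl5 (adjusted p = 0.136) and Cd68 (adjusted p = 0.0519) did not pass. Leaving out 1 section gave 417 genes (antibody replicate 1), 1338 (antibody replicate 2), 481 (ICI-alone replicate 1) and 376 (ICI-alone replicate 2). Tnc, S100a9, Mmp3, Lox, Col1a1, Postn, Mfap4, Mfap5, Efemp2, Pi16, Myh7 and Mylk4, a kinase of striated muscle (2.14 ± 0.21), passed under every alternative.

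**Figure D4:**
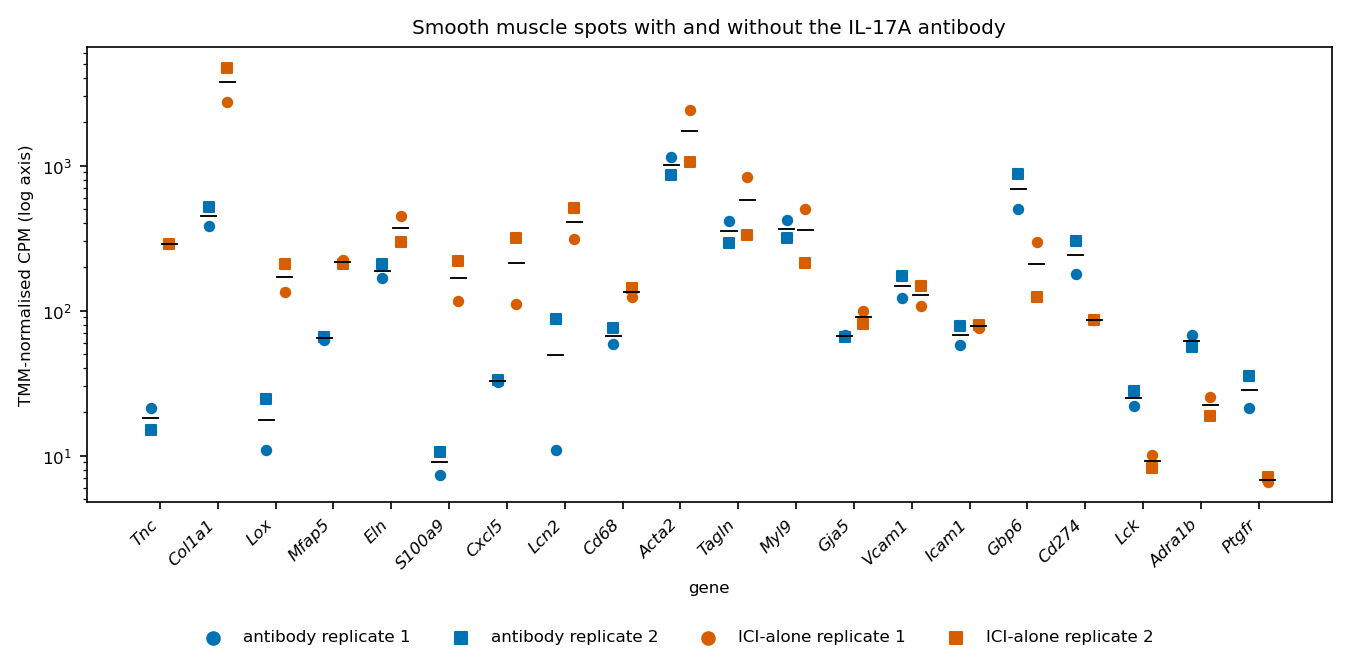
TMM-normalised CPM (log axis) of 20 genes in the smooth muscle spots of the antibody sections (blue, left of each pair) and the ICI-alone sections (orange), with 1 point per section and a bar at the group mean (n = 2). Tnc, Col1a1, S100a9 and Cxcl5 separate widely, Acta2, Tagln and Myl9 overlap, and Gbp6, Cd274, Lck, Adra1b and Ptgfr lie higher with the antibody.

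Whether the antibody effect was particular to smooth muscle spots was tested as the interaction of spot class and treatment. Of 16323 genes 3 passed (0.0184%), and 484 had an unadjusted p under 0.05, so for nearly all genes the effect in smooth muscle spots was not shown to differ from that in the other spots. For Tnc the log2 fold change was -3.95 in smooth muscle spots and -3.23 in the other spots, for Col1a1 -3.06 and -3.66, for S100a9 -4.25 and -3.62, and for Cd68 -1.01 and -1.63 (interaction adjusted p = 1 for each). Cd274 passed in smooth muscle spots (1.47) and not in the other spots (0.64, adjusted p = 0.0825), but the difference did not pass (interaction adjusted p = 1). Eln (-0.99 and -0.67) and Pi16 (-1.38 and -0.56) were likewise lower by more in smooth muscle spots, with interaction adjusted p of 1 and 0.189. A p that misses the threshold does not show that the effects were equal.

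The 3 genes with a differing effect were Fabp5, Hbb-bt and Cilp. Fabp5, a fatty acid binding protein, stood at 123 and 73.2 CPM in smooth muscle spots with the antibody and 69.02 and 131 CPM with ICIs alone, against 143 and 94.1 CPM with the antibody and 218 and 299 CPM with ICIs alone in the other spots. In the other spots the ICI-alone sections were the higher, and in smooth muscle spots the groups overlapped. Cilp, a matrix protein of cartilage and fibroblasts, stood at 58.8 and 30.5 CPM in smooth muscle spots with the antibody and 116 and 20.4 CPM with ICIs alone, against 15.8 and 11.3 CPM with the antibody and 6.22 and 4.55 CPM with ICIs alone in the other spots, and ICI-alone replicate 1 had the highest level in smooth muscle spots. Hbb-bt encodes a beta globin that a near-identical copy, Hbb-bs, can share reads with, and its values are uncertain. The edgeR adjusted p was 0.0422 for each, and under DESeq2, other scalings and several other spot sets 0 genes passed. The count was 188 without ICI-alone replicate 1 and 57 without ICI-alone replicate 2.

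**Figure D5:**
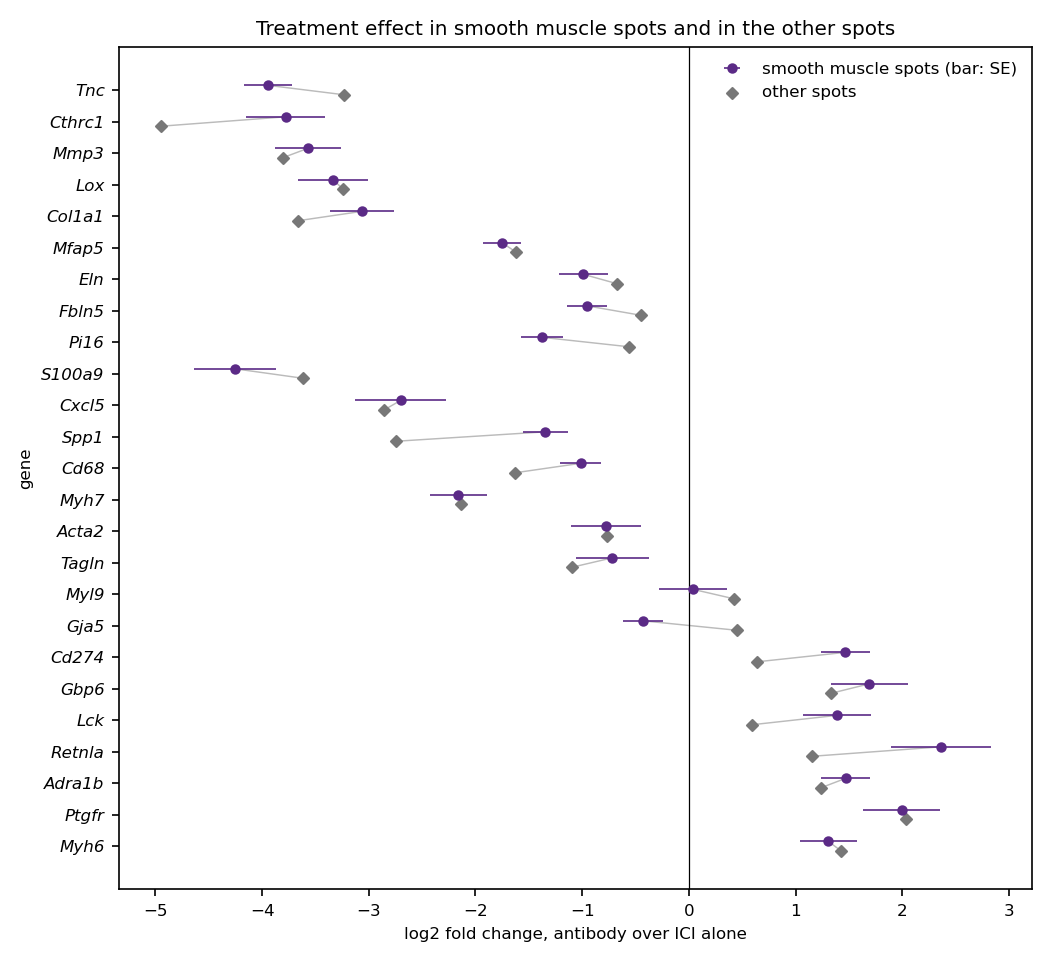
Log2 fold change of antibody over ICI alone for 25 genes in smooth muscle spots (purple, bar is the SE) and in the other spots (grey diamonds). Of the 25 pairs 24 lie on the same side of 0, from Tnc at -3.95 and -3.23 to Ptgfr at 1.99 and 2.03, and Gja5 lies on opposite sides without passing in either class or in the interaction test.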

How the data were processed

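Spatial transcriptomes of 4 formalin-fixed mouse heart sections (10x Visium, 19465 genes) were analysed from the filtered count matrices that the authors deposited. Per the file headers these were written by Space Ranger 2.1.0, and per the submitters' processing notes the genome was mm10 and Seurat 5.1.0 was used. The authors also deposited Moran's I per gene, a score of spatial clustering, which is quoted only as their value. Smooth muscle spots, the other spots and distance classes were defined on the spots with at least 5000 UMIs, and raw counts were summed per section and class. Sums of smooth muscle spots held 933500 UMIs or more. Counts were tested in edgeR 4.0.16 (R 4.3.3), with filterByExpr, TMM scaling, the quasi-likelihood F-test and Benjamini-Hochberg adjustment at 0.05 over all genes tested. Every adjusted p in the text is from that test unless another tool is named. Tests within sections carried the section as a block, the treatment test had 2 sections against 2, and their difference was the interaction. Levels are CPM, ± is an SE, and log2 fold changes are those of the fit. Tests were tried on simulated data with known changes. DESeq2 1.42.0 and limma 3.58.1 were alternatives, with other filters, scalings and spot sets.

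The spots and the 34 gene lists were chosen with earlier results of these data known, so list counts are descriptions. Some lists share genes, such as S100a9 among neutrophil genes and IL-17 targets, so their counts are not independent in any of the tests. Named genes are a fixed panel, the 10 largest rises and falls per test with at least 10 CPM, and up to 4 members per list with the smallest p. Where 1 to 5 members of a list passed and are named beyond that rule, they were chosen after their values were seen. Of the listed genes, 16 were not in the matrices. Promoters are from RefSeq (GRCm38.p6). Doublets were not called, since a spot is not a cell.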

Additional observations from a re-analysis of the deposited data

Results flagged for a closer look

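The difference between the treatment effects of the 2 spot classes (effect in smooth muscle spots minus effect in the other spots, on the log2 scale, edgeR interaction test) passed for 3 of 16323 genes. For Fabp5 it was 1.14 (1.1412), with a level in the other spots of 143 and 94.1 CPM with the antibody and 218 and 299 CPM with ICIs alone. For Cilp it was -1.7768, and its smooth muscle spot level was 58.8 and 30.5 CPM with the antibody and 116 and 20.4 CPM with ICIs alone. For Hbb-bt it was -1.4215, with 20.98 and 25.4 CPM in smooth muscle spots with the antibody and 39.4 and 14.4 CPM with ICIs alone, against 42.02 and 42.2 CPM with the antibody and 29.4 and 8.17 CPM with ICIs alone in the other spots. The edgeR adjusted p was 0.0422 for all 3. Without antibody replicate 1 it was 1 for Fabp5, 1 for Hbb-bt and 0.192 for Cilp, and Cilp had 0.93 without ICI-alone replicate 1.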

How the results depend on the processing

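Smooth muscle spots against the other spots gave 932 to 1353 genes when 1 section was left out. With Acta2, Tagln and Myl9 choosing the spots the number was 875, with ranking after thinning 869, without leukocyte-rich spots 884, with limma on mean log values 0 (2019 at an unadjusted p under 0.05) and with its variance trend 643.
The antibody comparison gave 376 to 1338 genes when 1 section was left out. It gave 1296 without a filter, 404 in DESeq2, 466 with 2% of spots, 1118 with 5%, 2153 with Acta2, Tagln and Myl9 choosing, 307 without atrial-rich spots, 1276 without edge spots, 430 with spots of 3 or more rule-gene UMIs and 220 with limma on mean log values. The fit with the replicate block gave 1385, and same-numbered sections deviated with a correlation of 0.0398, so the numbers were not taken as pairs.
The interaction gave 1 to 188 genes when 1 section was left out. It gave 0 with DESeq2 size factors, library size alone, the 10 CPM filter, DESeq2, 5% of spots, a 10000 UMI minimum and without leukocyte-rich spots (147 to 673 at an unadjusted p under 0.05), 11 without a filter and with Acta2, Tagln and Myl9 choosing, 18 after thinning, 1 without edge spots and 13 with 3 or more rule-gene UMIs.
First neighbours against distant spots gave 455 to 1455 genes when 1 section was left out, 2988 with 5% of spots, 0 with Acta2, Tagln and Myl9 choosing (923 at an unadjusted p under 0.05), 917 after thinning, 229 without leukocyte-rich spots, 878 without atrial-rich spots and 294 against spots 2 or 3 steps away. In that comparison Cd3e turned to 0.003107 with Acta2, Tagln and Myl9 choosing, and Ccl2 to 0.006354 against spots 2 or 3 steps away, neither past the threshold. Why these values moved was not tested. Spots with 3 or more rule-gene UMIs and the variance trend were alternatives added after seeing the data.
With 2 sections a group, a section left out leaves 1, which is assumed to vary like the rest. Spots with few UMIs of the rule genes limit how surely each is vessel wall, and sums of 933500 UMIs limit what rare leukocyte genes can show.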

Other observations

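Some nerve and cartilage-type genes were also higher in the smooth muscle spots, where 4.51% of all genes were higher and 6.1% lower. Of 12 Schwann cell genes 3 were higher in smooth muscle spots than in the other spots (Gfra3, a glial cell line-derived neurotrophic factor family receptor, at 1.90 ± 0.35, Cdh19 at 1.25 ± 0.32 and Pmp22, a myelin protein, at 0.60 ± 0.10) and 1 was lower, Ncam1 (-0.498 ± 0.15). Of 11 valve and cartilage-like genes 6 were higher and 0 lower (median 0.81), with Cytl1 at 2.44 ± 0.29, Prg4, lubricin, at 1.41 ± 0.16 and Comp at 1.65 ± 0.37. The list summed to 2.37 and 1.59 times its level in the other spots with the antibody and 3.57 and 1.38 times with ICIs alone. It reached 908 CPM in the clump of 24 spots of ICI-alone replicate 1. Whether these spots held valve tissue was not tested. Prg4 was itself among the larger falls with the antibody in these spots, at 21.9 and 28.7 CPM, against 259 and 201 CPM with ICIs alone (-3.21 ± 0.23, adjusted p = 6.41e-05 by edgeR), and the groups did not overlap. Cfd, a complement protease that adipocytes and macrophages make, was lower in smooth muscle spots (-2.40 ± 0.61).

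Cell cycle genes were lower with the antibody in the smooth muscle spots. Of 15 in the matrix 12 were tested, of which 5 fell and 0 rose (median -1.32). Over all genes 3.8% fell and 3.11% rose. All 15 summed to 99.9 and 199 CPM with the antibody and 310 and 370 CPM with ICIs alone (library-size scaled). A gene could pass the expression filter through the ICI-alone sections alone, so the direction of the tested genes is partly fixed by the filter. Plk1, a mitotic kinase, had -3.78 ± 0.69 (adjusted p = 0.00998 by edgeR) and Top2a, a topoisomerase of dividing cells, -1.59 ± 0.30 (adjusted p = 0.0114).

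The authors' deposited table gave Moran's I of Myh11 as 0.250 and 0.172 in the antibody sections and 0.360 and 0.167 in the ICI-alone sections. The authors' deposited table gave 0.152 and 0.223 for Eln with the antibody, and 0.419 and 0.434 with ICIs alone.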
